A study of Mus musculus with 7 samples.

Results

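The 10 genes described here encode the receptors with which a hepatocyte reads lipids, bile acids, glucocorticoids and foreign chemicals. They are Nr1i2, Nr1i3, Ahr, Ppara, Nr1h3, Nr1h4, Nr0b2, Nr5a2, Rxra and Nr3c1, out of 22380 protein-coding genes of the annotation. They were chosen by name, with earlier results of these data known, and the rule itself uses no measured value. For each gene, the peaks that touched its annotated span or the 50 kb on either side of it were collected, and these stretches are called member windows. The 10 windows held 156 of 76683 CTCF peaks, 179 of 67369 Rad21 peaks and 94 of 52436 CTCF sites that the authors had put into classes.

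The study mapped CTCF, a zinc finger protein that binds a long DNA motif, and Rad21, a subunit of the ring-shaped cohesin complex, in liver nuclei by chromatin immunoprecipitation and sequencing (ChIP-seq). The livers came from untreated male CD-1 mice of 8 weeks. The CTCF libraries numbered 4 (Millipore antibody) and the Rad21 libraries numbered 3 (Abcam antibody), and the authors pooled the libraries of each factor before calling peaks. By the methods of the study, the Rad21 libraries came from livers that also gave a CTCF library, and a remaining CTCF library had no Rad21 partner, although the library titles do not show the pairs. The pooled lists thus rest on partly different livers. The peak lists used here give no value per library, so no spread between mice accompanies the values below, and whole liver holds other cell types beside hepatocytes.

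Cohesin extrudes loops of chromatin and is halted where CTCF is bound with its motif facing the moving ring, so sites with cohesin and CTCF (CAC sites) often anchor loops and topologically associating domains (TADs). Cohesin also gathers at enhancers and promoters that lack CTCF, and such cohesin-non-CTCF (CNC) sites are known in liver to lie where hepatocyte transcription factors bind. Most of the proteins described here are transcription factors whose activity is set by a ligand, and Nr0b2, which does not bind DNA itself, acts on other receptors. Most bind copies of a short hexamer as heterodimers with the retinoid X receptor, whereas the aryl hydrocarbon receptor binds a core of 5 bases together with its partner Arnt. Between them they control bile acid synthesis, fatty acid oxidation, cholesterol export, gluconeogenesis and the cytochrome P450 enzymes of drug metabolism.

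The CTCF sites that carry the loop anchors of these genes are shown first, because the strand of the motif sets which way an anchor faces. The motif used, 19 bases long with the consensus NNGCCACNAGGGGGCGCNN, was learnt from TAD anchors elsewhere in the genome. For 7 of the 10 genes the line holds the strongest anchor that matched this motif, and for Nr5a2 and Ahr, whose windows held no anchor, the strongest CTCF site that did. At Nr1i2 and Nr1h3 stronger anchors, of scores 4817 and 6372, have a motif in the authors' class list but did not pass the threshold of the learnt one, and no line is shown for Nr3c1. Capitals mark the match and lower case letters the 11 bases on each side, and each line reads 5′ to 3′ on the strand of the match. The sequences were read from the NCBIM37 assembly (mm9) at chr16:38240015-38240055 (minus strand), chr1:173177260-173177300 (minus), chr15:85539930-85539970 (minus), chr2:27627579-27627619 (plus), chr2:91077741-91077781 (minus), chr10:88924808-88924848 (plus), chr4:133069111-133069151 (minus), chr1:138763458-138763498 (minus) and chr12:36217000-36217040 (plus), in the order of the lines.
Nr1i2, TAD anchor: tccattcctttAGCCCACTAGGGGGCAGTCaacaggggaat
Nr1i3, intra-TAD anchor: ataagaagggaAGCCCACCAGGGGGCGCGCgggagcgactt
Ppara, intra-TAD anchor: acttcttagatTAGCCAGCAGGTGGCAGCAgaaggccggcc
Rxra, TAD anchor: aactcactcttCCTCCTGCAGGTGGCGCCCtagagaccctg
Nr1h3, TAD anchor: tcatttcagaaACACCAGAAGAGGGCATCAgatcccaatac
Nr1h4, intra-TAD anchor: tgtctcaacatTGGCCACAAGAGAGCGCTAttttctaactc
Nr0b2, intra-TAD anchor: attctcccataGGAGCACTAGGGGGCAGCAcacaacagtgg
Nr5a2, other CAC site: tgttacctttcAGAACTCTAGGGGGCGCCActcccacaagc
Ahr, other CAC site: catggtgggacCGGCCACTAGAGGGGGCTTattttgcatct

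These 9 matches held between 9 and 13 of the 14 bases at which the consensus names a letter. By this count the Nr1i3 match, with 13, was the closest, whereas by the match score of the learnt motif the Ppara match was, with 19.6 beside 15.6 at Nr1i3. The Nr1h3 match was the poorest of the 9 by both measures, with 9 bases and a match score of 13.9. The CTCF peak scores of these sites ranged from 1438 at Nr1h3 to 8667 at Nr1i3.

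The CNC sites are shown next, because CNC peaks lay in the span of most of these genes. Each line holds the 201 bases centred on the summit of the strongest CNC peak of 4 members, read on the plus strand. Capitals mark AGGTCA, a hexamer that many but not all nuclear receptors bind, and GCGTG, the core bound by the aryl hydrocarbon receptor. Each is marked on either strand, so that TGACCT and CACGC are the same words read from the opposite strand. The positions are chr16:38287773-38287973 in an intron of Nr1i2, chr15:85602121-85602321 in an intron of Ppara, chr10:88969165-88969365 in a coding exon of Nr1h4 and chr1:138806914-138807114 in an intron of Nr5a2.
Nr1i2: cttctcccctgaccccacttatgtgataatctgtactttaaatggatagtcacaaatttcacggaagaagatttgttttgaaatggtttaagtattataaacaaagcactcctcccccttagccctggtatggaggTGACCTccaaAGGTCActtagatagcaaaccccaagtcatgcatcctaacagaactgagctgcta
Ppara: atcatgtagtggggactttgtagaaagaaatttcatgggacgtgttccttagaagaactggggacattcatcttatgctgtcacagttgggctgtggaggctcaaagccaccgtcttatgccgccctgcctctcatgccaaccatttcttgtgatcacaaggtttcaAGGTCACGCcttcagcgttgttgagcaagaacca
Nr1h4: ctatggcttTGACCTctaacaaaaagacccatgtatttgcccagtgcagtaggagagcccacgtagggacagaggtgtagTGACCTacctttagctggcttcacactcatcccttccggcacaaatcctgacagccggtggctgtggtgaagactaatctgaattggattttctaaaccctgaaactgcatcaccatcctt
Nr5a2: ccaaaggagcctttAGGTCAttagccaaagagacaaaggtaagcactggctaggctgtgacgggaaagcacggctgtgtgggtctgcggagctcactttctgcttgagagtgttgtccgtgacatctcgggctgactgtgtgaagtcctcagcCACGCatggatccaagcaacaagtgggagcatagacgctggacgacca

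The Nr1i2 and Nr1h4 stretches each held the hexamer 2 times, and the Ppara and Nr5a2 stretches each held it 1 time together with 1 copy of the GCGTG core, which in Ppara overlapped the hexamer. These 4 lines were picked for holding the words, and the strongest CNC peaks of Nr1i3, Rxra, Nr1h3 and Nr0b2 held neither. The strongest CNC peak of Nr3c1 is not shown, and of the 9 CNC summits in its window 0 held the hexamer and 3 held GCGTG. Over all 62 CNC peaks of the member windows, AGGTCA lay within 100 bp of the summit in 11, a share of 17.7% (95% Wilson confidence interval 10.2 to 29.0%, counting error only, as for all intervals here). The share over all 15321 CNC summits of the genome was 19.4%, and that over all 52048 Rad21 summits with CTCF was 12.7%, beside 15.4% (interval 9.96 to 23.0%) at the 117 member summits with CTCF. GCGTG was likewise found at 11 member CNC summits, 17.7% beside 15.7% of all CNC summits, and at summits with CTCF it was found at 19.7% in the member windows and 19.4% in the genome. The direct repeat with 1 base between the hexamers, AGGTCANAGGTCA, was at 0 of the 62 member CNC summits and at 0.104% of all CNC summits. The shares of both words at the member CNC peaks thus lay within counting error of those at CNC peaks in general. The CTCF motif matched at 0 of the 62 member CNC summits, where the interval reached 5.83%, beside 1.01% of all CNC summits. It matched at 25 of 117 member Rad21 summits with CTCF, or 21.4% (interval 14.9 to 29.6%), beside 35.9% of all such summits.

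All 10 windows held CTCF and Rad21 peaks, as did the windows of 88.1% and 85.8% of all protein-coding genes. Of the 179 Rad21 peaks in the member windows, 117 overlapped a CTCF peak by at least 1 bp and 62 were CNC peaks. The nearest CTCF summit lay a median of 2629 bp from the CNC summits, and within 1 kb at 18 of the 62. Whether these near ones are separate from the cohesin of the CTCF site was not tested. The CNC share was 34.6% (interval 28.1 to 41.9%), whereas it was 22.7% of the whole Rad21 list. The members differed widely in this share, so the sum does not describe each of them. It was 58.6% at Nr5a2, 35.5% at Ppara, 28.6% at Nr1i2 and 23.8% at Rxra. At Nr1h4 7 of 14 Rad21 peaks were CNC peaks, and at Nr3c1 9 of 18. The share was only 22.2% at Nr1i3 and Nr0b2 and 8.33% at Nr1h3, and Ahr had no CNC peak. Rad21 was present at 116 of the 156 CTCF peaks, that is 74.4% (interval 67.0 to 80.6%) beside 67.3% of the whole CTCF list. The order of this last pair depended on the rule of sharing, since with 50% reciprocal overlap the share was 57.69% in the member windows and 58.2% in the whole list. With a minimum score of 100 in both lists, the CNC share was 29.7% in the member windows and 15.5% genome-wide, but of these 30 member peaks 15 overlapped a CTCF peak below the minimum. With the minimum applied to Rad21 only, 15 of 101 member Rad21 peaks were CNC peaks, or 14.85%, beside 8.14% genome-wide. Peaks are not replicates and no test was made, so all comparisons with the whole lists are descriptions.

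Summed over the members, CNC peaks made up more of the Rad21 peaks inside the genes than beside them. Within the gene spans, 40 of 85 Rad21 peaks were CNC peaks, or 47.1% (interval 36.8 to 57.6%), and in the flanks 22 of 94 were, or 23.4% (interval 16.0 to 32.9%). Over all protein-coding genes the shares were 22.2% in spans and 18.6% in flanks, where a peak counts for each gene whose window it touches. The share was higher in the span at 6 members and lower at 3, namely Nr3c1 (3 of 9 in the span and 6 of 9 in the flanks), Nr5a2 (14 of 24 and 3 of 5) and Nr1h3 (0 of 2 and 1 of 10), and Ahr had no CNC peak. At least 1 CNC peak lay in the span of 8 of the 10 genes, the exceptions being Nr1h3 and Ahr, compared with 19.2% of all genes. Much of this count rested on weak peaks, since a CNC peak with a Rad21 score of at least 100 lay in the span of 4 of the 10, Ppara, Nr1h4, Nr5a2 and Nr3c1, compared with 6.48% of all genes. In the full window, 9 of the 10 genes had a CNC peak, compared with 50.3% of all genes. These genes are long, with a median span of 57.2 kb beside 15.4 kb over all genes, and a longer span can hold more peaks. Counted per 100 kb of window, the CNC density of 8 of the 10 members exceeded that of over 85% of all genes, with a median of 3.81 in the members and of 0.206 over all genes. Both lists were dense there as a whole, with medians per 100 kb of 10.7 Rad21 peaks beside 4.59 and of 10.8 CTCF peaks beside 5.59. The density per window does not take out the length of the span, whose part in these counts was not tested.

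**Figure D1:**
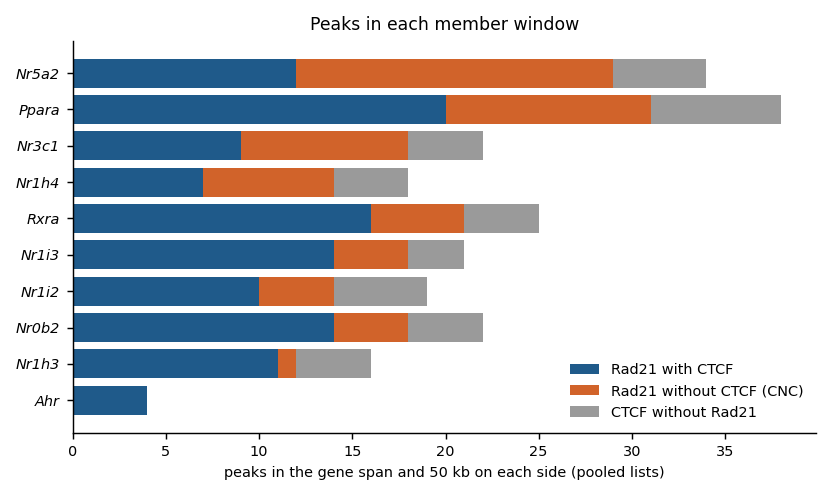
Bars give the number of peaks in each member window (gene span and 50 kb on each side) from the pooled lists, split into Rad21 peaks with CTCF, Rad21 peaks without CTCF (CNC) and CTCF peaks without Rad21. Nr5a2 and Ppara had the most CNC peaks, 17 and 11, and Ahr had 0.

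**Figure D2:**
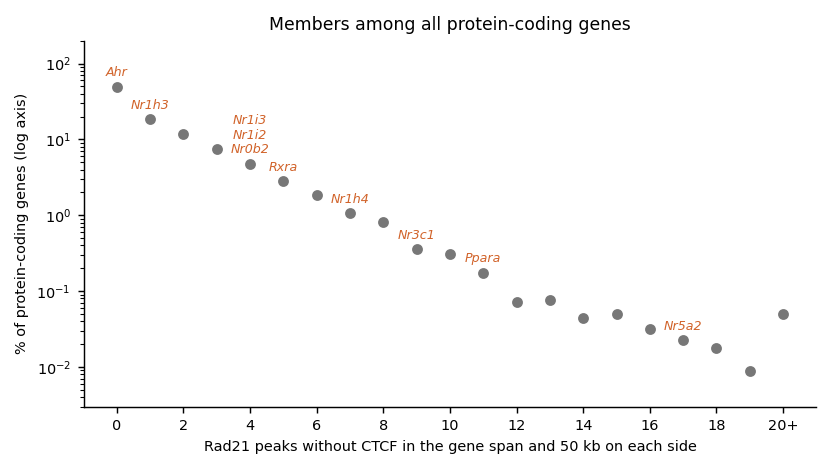
Points give the percentage of the 22380 protein-coding genes (vertical axis, log scale) whose window held a given number of CNC peaks (horizontal axis), and the members are named at their own number. The window of Nr5a2 held more CNC peaks than those of 99.9% of genes and that of Ppara more than those of 99.5%, whereas Nr1h3 and Ahr lay at 1 and 0.

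CNC peaks were weaker than Rad21 peaks with CTCF in the same windows. The peak score is 10 times the −log10 of the q-value. Its median was 66.5 for the 62 CNC peaks (range 18 to 371) and 211 for the 117 shared peaks (range 31 to 4884), and in all 9 windows that held CNC peaks the CNC median lay below the shared median. The ranges overlapped, and 6 of the 62 CNC peaks scored above the shared median of their own window. The same gap was found over the whole Rad21 list, with a median of 65 for all CNC peaks and 245 for all shared peaks, so it is not particular to these windows. The score of the member CNC peaks was close to that of all CNC peaks, but the piles were higher. A median of 40.5 sequenced fragments covered a member CNC summit, compared with 29 over all CNC peaks, and the local background estimate beside it was 13.1 fragments, compared with 7.43. The part of this higher background in the number of peaks called was not tested.

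**Figure D3:**
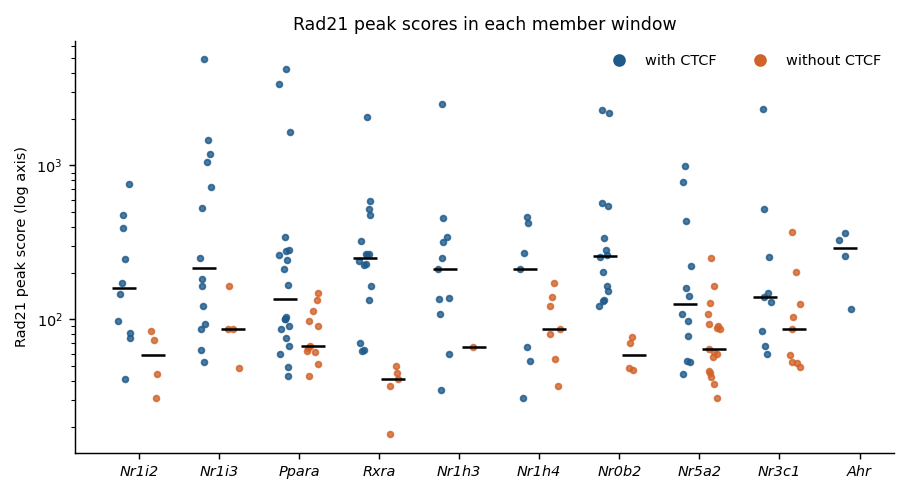
Points are the scores of single Rad21 peaks (log axis) in each member window, blue with and orange without an overlapping CTCF peak, and black lines are medians. The CNC medians lay between 41 and 87 and the shared medians between 125 and 293, and the single strongest CNC peak, at Nr3c1, reached 371.

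Every member carried a Rad21 peak with CTCF within 1 kb of a start in the full lists, compared with 50.8% of all genes. With a minimum score of 100 a Rad21 peak remained within 1 kb of a start of 8 of the 10, Nr1i3 and Nr5a2 being lost, compared with 45.6% of all genes. A CTCF peak lay within 1 kb of an annotated start of all 10 genes, compared with 56.3% of all genes, and a Rad21 peak did so in all 10, compared with 53.4%. Among the 16 CTCF peaks concerned, 15 were shared with Rad21, the exception being a CTCF peak of score 185 at the inner start of Nr5a2. CNC peaks lay within 1 kb of a start of 6 genes, namely Nr1i2, Nr1i3, Ppara, Nr1h4, Nr5a2 and Nr3c1, compared with 9.86% of all genes. Those with a score of at least 100 lay at 3 genes, Ppara, Nr1h4 and Nr3c1, compared with 3.12% of all genes. The members have a median of 4.5 annotated starts and all genes a median of 2, so that the members offered more places for a match. The part of this difference in the counts was not tested. Around the 5′ end alone, CNC peaks were found at 5 of the 10 genes, compared with 7.43% of all genes.

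Anchors were found in 8 windows, which held 6 TAD anchors and 14 intra-TAD anchors, the latter being the anchors of loops that the authors predicted inside TADs. A share of 65.0% of all genes had an anchor in the window. TAD anchors lay in 4 of the 10 windows, those of Nr1i2, Rxra, Nr1h3 and Nr3c1, compared with 34.1% of all genes. The member windows were longer, with a median of 157.0 kb beside 115.0 kb. As a share of the class-list sites, anchors were not more frequent in the member windows, where TAD anchors made up 6.38% of the sites (interval 2.96 to 13.2%) beside 11.2% of the whole class list and intra-TAD anchors 14.9% (interval 9.08 to 23.5%) beside 17.3%. The authors chose intra-TAD anchors by score, motif and strand, so the height of these peaks describes that choice, and they chose TAD anchors by motif, strand, presence in every CTCF library and nearness to a TAD boundary. The intra-TAD anchors had a median CTCF score of 3244 and a median Rad21 score of 1556, and the other CAC sites of these windows 436 and 225. Taking the nearest anchor on each side of the 5′ end at any distance, the motifs faced each other, plus strand on the left and minus strand on the right, at 7 of the 10 genes, compared with 34.0% of all genes. Facing motifs and a gene start inside were conditions of the authors' loop prediction. The exceptions were Nr1i2, Nr0b2 and Nr3c1.

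**Figure D4:**
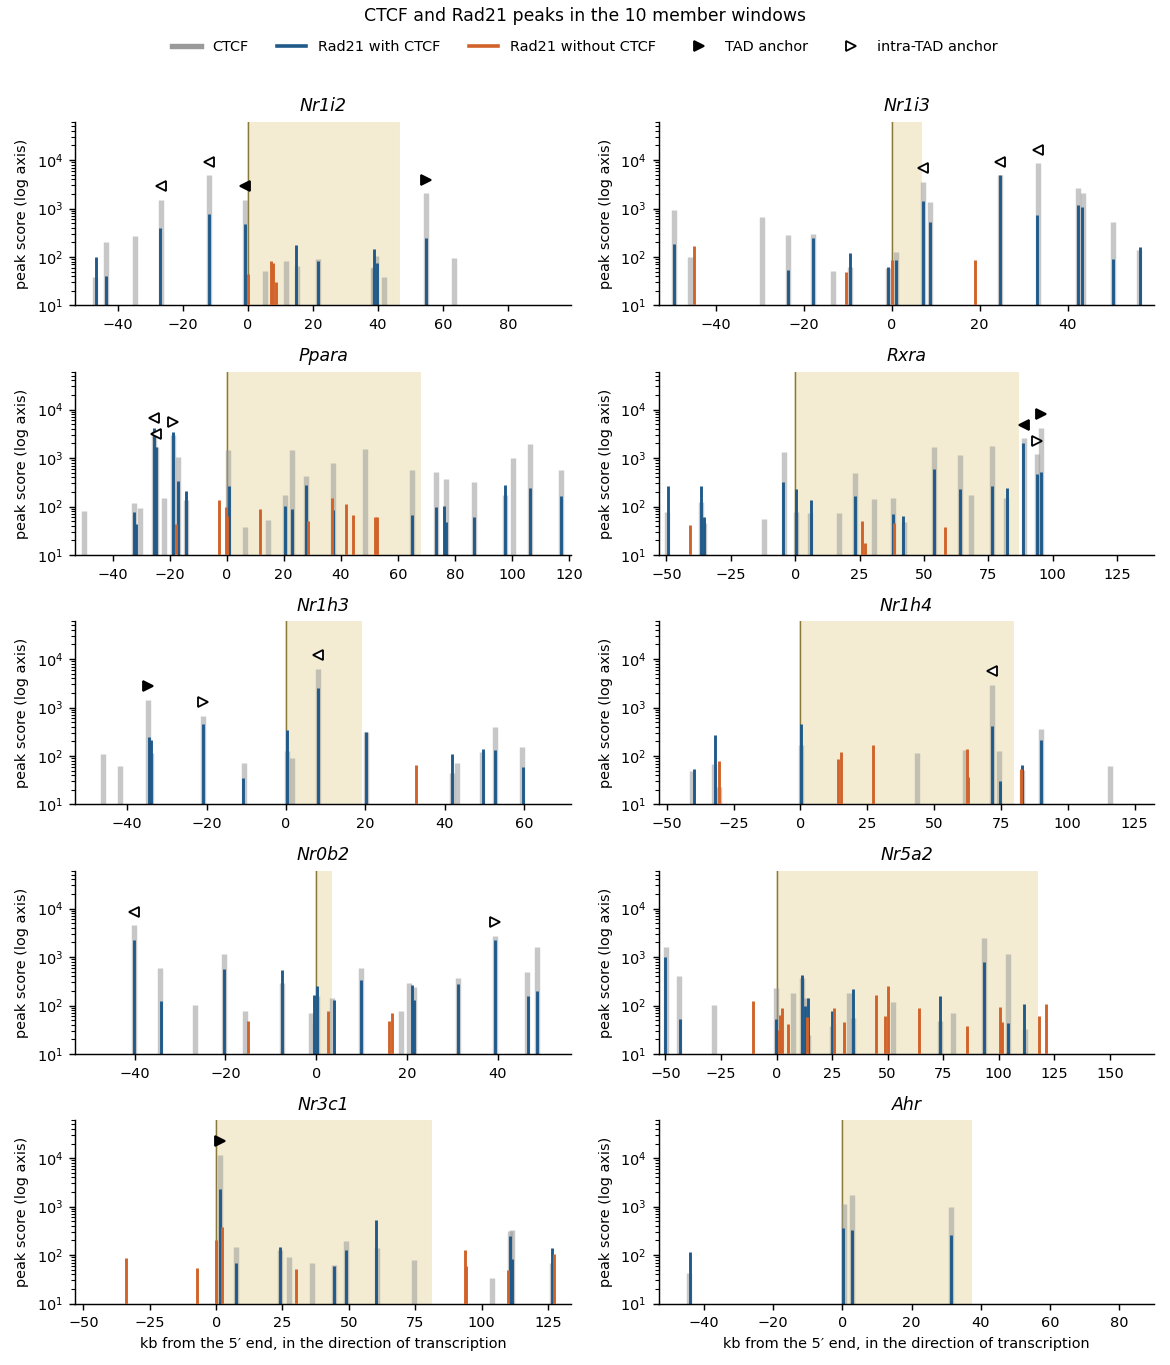
Each panel shows 1 gene, with the distance from its 5′ end in the direction of transcription (kb, horizontal), the peak score (log axis, vertical lines from the lower limit of the axis) and the gene span shaded. Triangles above the lines mark TAD anchors (filled) and intra-TAD anchors (open) and point the way the motif faces; the anchors of Nr0b2, 40145 bp upstream and 39373 bp downstream, both face away from the gene.

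The xenobiotic sensors came to 8 CNC peaks among 36 Rad21 peaks, a share of 22.2% that was close to the 22.7% of the whole Rad21 list. The shares of the groups below have the same 22.7% as their comparison. Nr1i2 (ENSMUSG00000022809.4, chr16:38248409-38294910, minus strand) encodes the pregnane X receptor, which induces Cyp3a enzymes when drugs or bile acids bind it. Its promoter lay next to a TAD anchor, a CTCF peak of score 1527 with 207 fragments whose summit was 868 bp upstream of the 5′ end, with a Rad21 score of 478. A second TAD anchor, with scores of 2045 for CTCF and 247 for Rad21, lay beyond the 3′ end in an intron of Gsk3b, 54884 bp from the 5′ end. The motif of the former was on the plus strand and that of the latter on the minus strand, so that the anchors flanking Nr1i2 faced away from the gene. Intra-TAD anchors of scores 4817 and 1512 followed 11850 and 26841 bp upstream, both on the plus strand like the promoter anchor. Between the TAD anchors, in contrast, every CTCF peak was weak, with scores from 39 to 103, and none was in the class list. The 4 CNC peaks of Nr1i2 all lay in its span, 3 of them in introns 7037, 7776 and 8686 bp from the 5′ end with scores of 84, 74 and 31, and the fourth in an exon of the untranslated region 144 bp from it with a score of 44.

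Nr1i3 (ENSMUSG00000005677.7, chr1:173144101-173150832, plus strand) encodes the constitutive androstane receptor, which induces Cyp2b enzymes. It sits in a gene-dense stretch with 7 other protein-coding genes in its window, among them Apoa2, and its Rad21 density, 16.9 per 100 kb, exceeded that of 99.1% of genes. The gene itself held little: at its start lay a CNC peak of score 87 with 41 fragments, 87 bp downstream of the 5′ end, and shared CTCF peaks of scores 60 and 129 on either side of it. A strong intra-TAD anchor on the minus strand, with a CTCF score of 3535 and a Rad21 score of 1457, lay 7055 bp from the 5′ end, just past the 3′ end of the gene in an intron of Tomm40l. Anchors on the same strand followed 24685 and 33179 bp from the 5′ end. The first of these had the highest Rad21 score of all member windows, 4884 beside a CTCF score of 4904, and the latter, shown above, a CTCF score of 8667 but a Rad21 score of only 726.

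Ahr (ENSMUSG00000019256.10, chr12:36182646-36219710, minus strand) encodes the aryl hydrocarbon receptor, a basic helix-loop-helix protein and not a nuclear receptor by structure, which induces Cyp1a enzymes. It was the sparsest locus, with 4 CTCF peaks, 4 Rad21 peaks, no CNC peak and no anchor within 50 kb. All 4 peaks were shared. A pair in the promoter region, 409 and 2701 bp from the 5′ end, had CTCF scores of 1111 and 1766 and Rad21 scores of 364 and 329, and a peak in a coding exon had scores of 981 and 257. All 3 had the motif on the plus strand. The nearest anchors were 314 kb and 338 kb away and faced the gene.

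Among the lipid sensors, 12 of 43 Rad21 peaks were CNC peaks, or 27.9%, but they were split unevenly. Ppara (ENSMUSG00000022383.7, chr15:85565413-85633249, plus strand) encodes the fatty acid receptor that drives fatty acid oxidation in fasting. Its window held 25 CTCF and 31 Rad21 peaks, the most of any member for both factors, and 11 CNC peaks. Of these, 3 lay within 1 kb of a start. At the outer start they lay 302 bp upstream and 132 bp downstream of the 5′ end, with 71 and 64 fragments, and a further one with 76 fragments lay outside that distance, 2709 bp upstream. The strongest, of score 148 with 65 fragments and shown above, lay 423 bp from an inner start, whose own CTCF peak had a score of 786. A group of 3 intra-TAD anchors stood 18784 to 25433 bp upstream with Rad21 scores of 4258, 1654 and 3406. At the outermost and innermost of these the Rad21 score exceeded the CTCF scores of 3583 and 2954.

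Nr1h3 (ENSMUSG00000002108.4, chr2:91024218-91042991, minus strand) encodes the liver X receptor alpha, an oxysterol sensor that induces cholesterol export and lipogenesis. Its window held 12 Rad21 peaks of which 1 was a CNC peak, of score 66 in a coding exon of the neighbour Madd, and its CNC density exceeded that of 59.4% of genes only. At its outer start, 157 bp from the 5′ end, lay a site that the authors class as lone CTCF, where the pooled Rad21 score of 341 exceeded the CTCF score of 125. An intra-TAD anchor of CTCF score 6372 and Rad21 score 2499 lay inside the gene, 151 bp from an inner start. Upstream of the gene an intra-TAD anchor of score 672 and a TAD anchor of score 1438 faced it from 20965 and 34731 bp. The anchor in the gene faced them, so that the outer start of Nr1h3 lay between anchors that faced each other.

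The genes of the bile acid circuit together had 28 CNC peaks among 61 Rad21 peaks, or 45.9%, with no TAD anchor and 3 intra-TAD anchors. Nr5a2 gave 17 of the 28, and without it the share was 34.4%, or 11 of 32. Nr1h4 (ENSMUSG00000047638.9, chr10:88916979-88996330, minus strand) encodes the farnesoid X receptor, the bile acid sensor. Shared and CNC peaks were equal in number there, 7 each. Its outer start carried a shared site at which the Rad21 score, 464, exceeded the CTCF score, 165, and its inner start carried the strongest CNC peak of the window, of score 172 with 58 fragments in a coding exon, 129 bp from that start. The nearest CTCF summit was 16724 bp away. Further CNC peaks of scores 122, 87 and 140 lay in introns. The only anchor, of CTCF score 2950, was in an intron near the 3′ end and its motif faced the gene's start.

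Nr0b2 (ENSMUSG00000037583.2, chr4:133109291-133112451, plus strand) encodes the small heterodimer partner, which lacks a DNA-binding domain, is induced by the farnesoid X receptor and represses bile acid synthesis. The gene spans only 3.16 kb among 7 neighbours, and its CTCF density, 17.4 per 100 kb, exceeded that of 99.0% of genes. At its promoter, weak shared sites lay 332 bp upstream and 220 bp downstream of the 5′ end, with Rad21 scores of 166 and 256 above the CTCF scores of 42 and 155. Its 1 CNC peak in the span, of score 77 with 60 fragments, was in a coding exon. Intra-TAD anchors with Rad21 scores of 2294 and 2204 stood on either side and faced away from it.

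Nr5a2 (ENSMUSG00000026398.8, chr1:138740161-138857004, minus strand) encodes liver receptor homolog, an activator of bile acid synthesis genes that Nr0b2 inhibits. It was the member richest in CNC peaks, with 17 of 29 Rad21 peaks, or 58.6%, and 14 of them in its span. Its CNC density, 7.84 per 100 kb, exceeded that of 99.8% of genes, while its CTCF density exceeded that of 66.5% only. Most of these CNC peaks were small, with a median score of 64, but 2 deep in the gene were stronger, with scores of 250 at 49990 bp and 165 at 44805 bp from the 5′ end. No anchor lay in the window. The nearest, 186 kb and 265 kb from the 5′ end, faced each other across the gene. The strongest CTCF site of the gene span, of score 2430 with a Rad21 score of 780, was an other CAC site with the motif on the minus strand.

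Rxra (ENSMUSG00000015846.8, chr2:27531960-27618477, plus strand) encodes the retinoid X receptor alpha, the shared partner of most receptors described here. Its 5 CNC peaks among 21 Rad21 peaks made a share of 23.8%, close to the 22.7% of the whole list, and 4 lay in its introns. Their median score, 41, was the lowest of the members with CNC peaks, with scores from 18 to 50. Its promoter site was shared, with a Rad21 score of 230 above a CTCF score of 77. The 3′ end was marked by a group of 3 anchors. A TAD anchor on the minus strand, of CTCF score 2533 and Rad21 score 2060, lay 88708 bp from the 5′ end and faced back over the gene, and next to it an intra-TAD anchor of score 1207 and a TAD anchor of score 4161 on the plus strand faced away.

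Nr3c1 (ENSMUSG00000024431.7, chr18:39570199-39650955, minus strand) encodes the glucocorticoid receptor, which acts as a homodimer and supports gluconeogenesis. It had the strongest CTCF peak of all member windows, a TAD anchor of score 11588 with 1193 fragments and a Rad21 score of 2330. This anchor lay in an intron 1276 bp from the 5′ end and 137 bp from another start, among the alternative first exons of the gene. CNC peaks flanked it on both sides, with a score of 371 and 157 fragments 2156 bp downstream and a score of 202 and 121 fragments 181 bp upstream of the 5′ end. The former had the highest score of the member CNC peaks and the latter the third highest, after one at Nr5a2, and both had more fragments than any other. The nearest CTCF summits to them were 880 and 1457 bp away, and whether they are separate from the cohesin of the anchor was not tested. Of its 18 Rad21 peaks 9 were CNC peaks, but only 3 of these were in the span, and 4 others were nearest to a start of Arhgap26. The nearest anchor on the other side was 688 kb away.

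At CTCF sites the Rad21 score exceeded the CTCF score more often than in the whole list. The scores come from pools of 4 CTCF and 3 Rad21 libraries with different antibodies. A higher Rad21 score thus does not measure more cohesin than CTCF. Of the 116 shared CTCF peaks of the member windows, 40 had a Rad21 score above their CTCF score, or 34.5% (interval 26.5 to 43.5%), compared with 19.9% of all shared CTCF peaks. Most of the 40 were peaks outside the class list, where the Rad21 score was higher at 26 of 31 member sites, or 83.9% (interval 67.4 to 92.9%), beside 66.6% of all such sites. Among listed peaks it was higher at 6 of 22 without a motif, or 27.3% (interval 13.2 to 48.2%), beside 26.2%, and at 8 of 63 with a motif, or 12.7% (interval 6.58 to 23.1%), beside 6.95%. Within 1 kb of a start, the Rad21 score was higher at sites of 5 members, and no such count over all genes accompanies this number. The sites concerned at Rxra, Nr0b2 and Nr1i3 (63 above 60) were outside the class list. That of Nr1h3 was listed without a motif and that of Nr1h4 was listed with one. At another start site of Rxra, Nr1h3 and Nr1i3 the CTCF score was higher, with 1177 above 225, 6372 above 2499 and 129 above 87. It was also higher at the shared start sites of Nr1i2, Ppara, Nr5a2, Nr3c1 and Ahr.

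**Figure D5:**
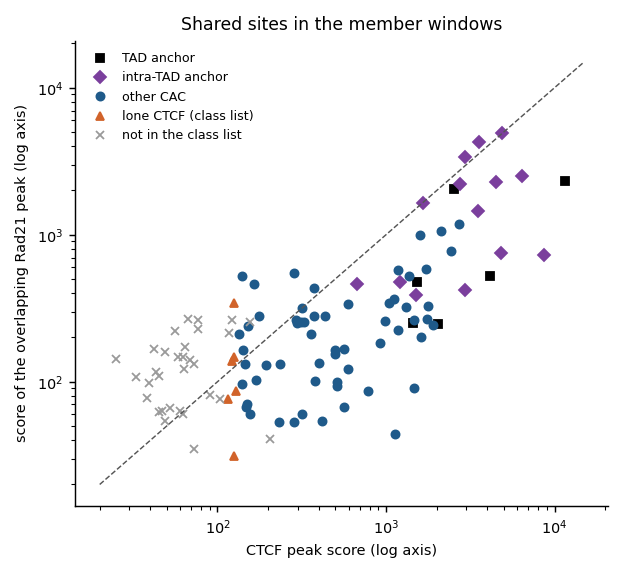
Each point is a CTCF peak of the member windows that overlapped a Rad21 peak, with its CTCF score (horizontal, log axis) and the score of the Rad21 peak (vertical, log axis), by class. Points above the dashed line of equal scores, 40 of 116, were mostly weak CTCF peaks outside the class list, with 26 of them, and 2 anchors lay above it, both at Ppara.

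The CTCF sites of the members were in part weakly supported. The class list, which the authors built from peaks seen in at least 2 livers, held 94 of the 156 member CTCF peaks, or 60.3% (interval 52.4 to 67.6%), compared with 68.4% of the whole list. The 62 others had a median score of 68 and the 94 listed a median of 564.5. Nr1i2 (5 of 16 listed) and Nr1h4 (5 of 11) had fewer listed than unlisted CTCF peaks. The learnt motif matched 45 of the 156, or 28.8% (interval 22.3 to 36.4%), compared with 42.7% of all CTCF peaks. It matched 1% of flanking windows and 80.3% of the TAD anchors not used to learn it, and at the 35 member sites with a match and a strand in the class list both gave the same strand. Among the sites that the authors class as lone CTCF, 6 of 15 touched a Rad21 peak in the pooled calls, or 40.0% (interval 19.8 to 64.3%), beside 15.8% of all lone CTCF sites.

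The wider receptor network was counted in the same way. Of 39 other nuclear receptor genes, 18 had a CNC peak in the span (46.2%), of 22 partners and coregulators 13 did (59.1%), and of 36 target genes of the receptors 24 did (66.7%), beside 8 of 10 members and 19.2% of all genes. With a Rad21 score of at least 100, these counts fell to 8 (20.5%), 6 (27.3%) and 7 (19.4%), beside 4 of 10 members and 6.48% of all genes. The order of the lists thus depended on weak peaks. Summed over windows, CNC peaks were 26.9%, 25.5% and 32.5% of the Rad21 peaks of these lists, beside 34.6% for the members and 19.6% for all genes. Genes with many CNC peaks in the window were Thrb (19), Rora (14) and Esrrg (11) among the receptors, Ppargc1b (11) and Ncoa3 (10) among the coregulators, and Abca1 (8), Cyp3a11 (8) and Abcc2 (7) among the targets. At Cyp3a11, a target of Nr1i2, all 8 Rad21 peaks of the window were CNC peaks, of which 1 lay in the gene span. The median CNC density per 100 kb was 0.82 in the other receptors, 1.25 in the partners and coregulators and 2.42 in the target genes, beside 3.81 for the members. The lists were not compared by a test, and the genes in them differ in length.

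As a check of the tissue, CNC peaks within 10 kb of marker genes were counted. They were found at 6 of 7 hepatocyte markers, 16 peaks in all, Apoa1 having 0, and at 0 of 8 genes of muscle, neurons, glia, pancreas, gut and lung, beside 29.4% of all protein-coding genes. An eighth hepatocyte symbol, Tf, is not used by this annotation. Levels of RNA were not analysed here.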

How the data were processed

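The authors pooled the reads of 4 CTCF and 3 Rad21 ChIP-seq libraries by factor, mapped them to mm9 with Bowtie2, kept unique positions, called peaks with MACS2, and left out peaks in blacklisted regions or held up by PCR duplicates only (study methods and submitters' processing notes). The deposited pooled lists give per peak a score, a fold over local background, −log10 p-value and −log10 q-value, and a summit offset. The deposited class list gives the authors' 4 classes, a CTCF motif score and strand, and flags for Stag1, Stag2 and Top2b from public data; its columns carry no names, and these follow the study's description. The lists used here are pooled, single libraries were not analysed, and no test between groups was made. The study's methods state the depth of the libraries as a range only, and no depth was computed here. Files with per-library columns that were left out numbered 0.

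From these lists, fragments at each summit were recovered from fold and p-value (whole within 0.05 at 99.996% of CTCF and 99.997% of Rad21 peaks). Genes and 22380 protein-coding spans came from GENCODE vM1 on NCBIM37, the assembly of mm9. Windows were spans ±50 kb, and sharing meant 1 bp. Shares carry 95% Wilson intervals. The motif was learnt by expectation-maximisation on 1000 TAD anchors outside the member windows, with a threshold passed by 1% of windows 1000 bp away. Functions were tested on simulated data. Tools were SciPy 1.17.1, pandas 2.3.3, NumPy 2.4.6, pysam 0.24.0 and Matplotlib 3.10.9 under Python 3.11.15.

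All 10 members are named. For each, the strongest Rad21 peaks with and without CTCF, the peaks within 1 kb of a start and the anchors were eligible for mention, and of the 3 other lists at most the 3 genes with most CNC peaks, of which 1 is not reported here. Members, lists and windows were chosen with earlier results of these data known. Alternatives were a minimum score of 100, 2 stricter rules of sharing, summits in the window, windows of 20 and 100 kb, other definitions of a start, and leaving out each gene.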

Additional observations from a re-analysis of the deposited data

How the results depend on the processing

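No paired analysis was possible because the peak lists used here pool all libraries of a factor and carry no replicate numbers. Of 39 values recomputed under the settings chosen at the outset, apart from leaving out a gene, 30 stayed within the limits set for them (1.5 times for counts, the 95% interval for shares and medians) and 9 moved, as did 4 of the 5 added after seeing the data. With a minimum score of 100 in both lists, Rad21 peaks came to 101 and CNC peaks to 30, and the median Rad21 scores were 319 with CTCF and 144.5 without. Of these 30, 15 overlapped a CTCF peak below the minimum, so they are not the same set. With the minimum on Rad21 only, added after seeing the data, CNC peaks came to 15 and their share to 14.85%, and genes with a CNC peak in the span fell from 8 to 4 and at a start from 6 to 3. With summits within 100 bp, the CNC share was 48.6% and the share of CTCF peaks with Rad21 was 58.97%, and with 50% reciprocal overlap these were 49.72% and 57.69%. The whole lists moved likewise, to CNC shares of 36.8% and 33.7% and shares of CTCF peaks with Rad21 of 55.5% and 58.2%, so that under 50% reciprocal overlap the latter lay above the member share. With 20 kb flanks the CNC share was 42.75%, the share being lower in the flanks. Leaving out each gene gave CNC shares from 30.0% (without Nr5a2) to 36.53%, shares of CTCF peaks with Rad21 from 73.38% to 75.17%, and median Rad21 scores from 173 to 213 with CTCF and from 65 to 74 without. Genes were left out singly, so whether a few genes together carry the CNC share was not tested. The counts of genes with a CNC peak within 1 kb of any start and of the 5′ end alone were added after seeing the data. Pooling limits all values: these lists give no spread between mice, and single libraries were not analysed here.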

Other observations

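Cohesin rings carry either Stag1 or Stag2, and topoisomerase Top2b is known to bind beside CTCF at loop anchors. In the class list, all 20 anchors of the member windows carried both the Stag1 and the Stag2 flag, and 17 of the 20 the Top2b flag (interval of the share 64.0 to 94.8%). Over all 14913 anchors of the class list the shares were 92.8%, 96.6% and 74.9%. Of the 59 other CAC sites, 74.6% had the Stag1 flag, 91.5% the Stag2 flag and 59.3% the Top2b flag, beside 75.3%, 95.5% and 58.0% of all other CAC sites. Of the 15 lone CTCF sites, 40.0% had the Stag1 flag and 80.0% the Stag2 flag, beside 26.9% and 57.5% of all lone CTCF sites, and 6 had the Top2b flag, beside 1904 of all 10553 lone CTCF sites. Over all classes, the shares in the member windows were 74.5% (interval 64.8 to 82.2%), 91.5% (84.1 to 95.6%) and 61.7% (51.6 to 70.9%), beside 70.6%, 88.1% and 54.8% of the whole class list.

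Along the deposited motif, the Rad21 summit lay a median of 10 bp beyond the CTCF summit on the 3′ side at the 63 shared member sites with a motif (interval −8 to 29 bp), and beyond it at 36 of the 63. Over all 35443 such sites the median was 17 bp.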
